A study of Homo sapiens with 8 samples.

Results

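The 52 genes described here make the DNA replication machinery and carry cells into S phase. They cover origin recognition, licensing, the MCM helicase and its activators, polymerases, the sliding clamp, lagging-strand enzymes, maintenance methylation, S-phase entry and deoxynucleotide supply. They were picked by gene symbol through a rule that uses no measured value, all 52 symbols were found once among the 46427 genes of the table, and all 52 were among the 17044 genes tested. The RNA came from RPE-1, a human pigment epithelial line from the retina that carries telomerase (hTERT) and so divides without limit. All-trans-retinal (atRAL), the aldehyde of vitamin A that light frees from visual pigment, was added at 25 µM, and extracellular vesicles (EV) shed by mesenchymal stem cells of the tonsil at 2000000000 particles per ml. The 8 libraries are atRAL plus EV, atRAL alone, EV alone and untreated control, each after 6 h and after 1 h, from 2500000 cells and with 1 library per condition. All are poly(A) mRNA of the same line in the same medium, and a growing culture holds cells in every phase of the cycle.

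Replication starts at origins that the origin recognition complex (ORC) marks in G1, where CDC6 and CDT1 load the ring-shaped MCM helicase and geminin later blocks a further round. The kinase CDC7 with DBF4 and the cyclin E kinase then fire the origins, CDC45, the GINS complex and MCM10 turn MCM rings into moving helicases, and polymerases alpha, delta and epsilon copy the strands, held by the clamp PCNA. Many of these genes are transcribed together at the G1 to S boundary by E2F factors, which the retinoblastoma protein family restrains until cyclin kinases release them. The retinal pigment epithelium of the eye seldom divides, whereas RPE-1 is a cycling line used widely in cell cycle work.

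The promoters of 6 genes are shown as examples of mRNAs that were lower, higher or not called for atRAL at 6 h. CDC25A, UHRF1, POLA2 and MCM2 were lower, RFC1 was higher and E2F1 was not called. Each window is 300 bases of RefSeq sequence (GRCh38.p14), written 5′ to 3′ on the gene's own strand, with 250 bases before and 50 bases from the annotated start on. Capitals mark every match to the E2F words TTTGGCGC, TTTCCCGC, TTTGCCGC and TTTCGCGC, read on both strands. A match is a description of letters and not a bound site.
CDC25A, chr3:48188368-48188667, minus strand: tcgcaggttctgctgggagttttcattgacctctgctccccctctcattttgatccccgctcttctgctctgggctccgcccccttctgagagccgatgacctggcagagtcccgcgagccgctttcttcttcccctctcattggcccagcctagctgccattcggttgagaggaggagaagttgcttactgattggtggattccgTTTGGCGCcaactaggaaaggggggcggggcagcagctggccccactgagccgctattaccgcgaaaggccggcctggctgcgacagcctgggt
UHRF1, chr19:4909251-4909550, plus strand: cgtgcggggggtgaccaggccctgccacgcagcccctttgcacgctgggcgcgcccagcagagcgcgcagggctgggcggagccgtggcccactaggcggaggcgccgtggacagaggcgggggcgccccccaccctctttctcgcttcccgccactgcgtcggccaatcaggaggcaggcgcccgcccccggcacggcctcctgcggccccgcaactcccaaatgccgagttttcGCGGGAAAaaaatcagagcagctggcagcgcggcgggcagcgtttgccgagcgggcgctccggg
POLA2, chr11:65261712-65262011, plus strand: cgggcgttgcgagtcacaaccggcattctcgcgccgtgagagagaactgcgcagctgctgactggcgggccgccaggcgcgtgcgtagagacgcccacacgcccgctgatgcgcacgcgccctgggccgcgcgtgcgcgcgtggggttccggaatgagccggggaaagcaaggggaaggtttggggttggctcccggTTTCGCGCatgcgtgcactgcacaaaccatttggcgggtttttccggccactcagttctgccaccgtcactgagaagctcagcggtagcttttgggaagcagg
MCM2, chr3:127598161-127598460, plus strand: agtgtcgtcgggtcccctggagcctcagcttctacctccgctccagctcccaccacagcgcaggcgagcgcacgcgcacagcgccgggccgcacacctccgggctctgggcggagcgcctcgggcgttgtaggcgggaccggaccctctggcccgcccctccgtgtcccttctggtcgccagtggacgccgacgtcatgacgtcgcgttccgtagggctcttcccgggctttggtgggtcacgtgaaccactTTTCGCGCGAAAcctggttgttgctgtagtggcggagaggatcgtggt
E2F1, chr20:33686336-33686635, minus strand: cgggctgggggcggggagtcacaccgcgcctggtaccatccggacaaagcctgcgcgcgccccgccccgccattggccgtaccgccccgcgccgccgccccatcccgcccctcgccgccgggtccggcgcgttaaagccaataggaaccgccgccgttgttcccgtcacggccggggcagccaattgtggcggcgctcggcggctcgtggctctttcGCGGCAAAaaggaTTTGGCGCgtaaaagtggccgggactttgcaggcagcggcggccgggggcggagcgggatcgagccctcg
RFC1, chr4:39366313-39366612, minus strand: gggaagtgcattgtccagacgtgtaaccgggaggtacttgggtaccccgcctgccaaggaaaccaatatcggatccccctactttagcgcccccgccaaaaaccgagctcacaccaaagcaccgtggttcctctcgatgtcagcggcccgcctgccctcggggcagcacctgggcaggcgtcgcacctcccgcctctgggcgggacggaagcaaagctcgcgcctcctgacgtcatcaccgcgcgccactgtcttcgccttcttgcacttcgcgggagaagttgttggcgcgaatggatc
The CDC25A word lies 44 bases before the start and the POLA2 word 53 bases before it. The UHRF1 word, in reverse, lies 14 bases before the start shown. UHRF1 has 2 windows that hold an E2F word, and the other has TTTCGCGC at position -160. In MCM2 a forward and a reverse word overlap just after the start, at positions 3 and 7. E2F1 holds 2 words, at positions -33 and -20, although its mRNA was not called, and the RFC1 window holds none. The windows of FEN1, CCNE1 and MCM10, whose mRNAs were lower too, hold none either and are not shown.

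Total counts per library ran from 45566237 (atRAL alone, 1 h) to 71822269 (EV alone, 6 h), and the 52 genes held 0.2% to 0.266% of them. As markers of epithelial origin, KRT8 was at 615 to 798 CPM (counts scaled to the library total) and KRT18 at 351 to 517. Of the pigment epithelium markers, RPE65 and RLBP1 reached at most 0.126 and 0.155 CPM and TYR had no count in any library, and PMEL was at 0.349 to 0.748 CPM. BEST1 was at 0.668 to 4.32 CPM, OTX2 at 12.8 to 39.7 and MITF at 28.9 to 45.4, so RPE65, RLBP1 and TYR, which mark the mature pigment epithelium, were at or near 0 while its transcription factors were expressed. The labels name no separate cultures, and no condition has a replicate. For atRAL and EV at each time, p-values therefore measure the spread left after adding their effects. That spread holds any interaction of atRAL with EV, and noise that may be technical.

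Per transcript length, PCNA had the highest median level of the 52 genes over the 8 libraries, 68.5 FPKM (fragments scaled to transcript length and library size), with a range of 49.1 to 89.5 FPKM. POLD2, a small subunit of polymerase delta, followed at 58.7 FPKM, MCM7 at 51.4, and the ribonucleotide reductase subunits RRM2 and RRM1 at 48.8 and 31.4 FPKM. The lowest were POLE2, a small subunit of polymerase epsilon, at 1.99 FPKM and E2F2 at 1.2 FPKM. The ranges of PCNA (49.1 to 89.5) and POLD2 (48.6 to 64.5) overlap, as do those of MCM7 (41.6 to 54.3) and RRM2 (37.4 to 52.7). Across the 8 libraries, the highest CPM of a gene over its lowest ran from 1.12 for ORC4 to 3.73 for CCNE2, with a median of 1.48, and passed 2 for MCM10, POLA2, FEN1, UHRF1, CCNE1, CCNE2 and CDC25A.

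After 6 h, most of the genes that admit cells to S phase, though not E2F1, and several that build the replication fork were lower with atRAL. The effect of atRAL at 6 h compares 2 atRAL libraries with 2 that had none, with EV in the model, by edgeR's quasi-likelihood test adjusted over all 17044 genes. It called 26 of the 52 genes lower, where 14.2% of all genes were called lower, and 2 higher, RFC1 and ORC6, where 15.9% of all genes were. The other 24 did not pass an adjusted p under 0.05. The log2 fold changes of the 52 ran from -1.35 (CCNE2) to 0.60 (RFC1), with a median of -0.32, against -0.01 over all genes. Below 0 were 41 of the 52, and 8663 of all 17044 genes. Both atRAL libraries lay below both others for 35 of the 52 genes and above them for 4, where 29.9% and 29.8% of all genes did so, and the groups overlapped for 13. In bulk RNA, fewer cells that express these genes and less of their RNA per cell cannot be told apart.

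**Figure D1:**
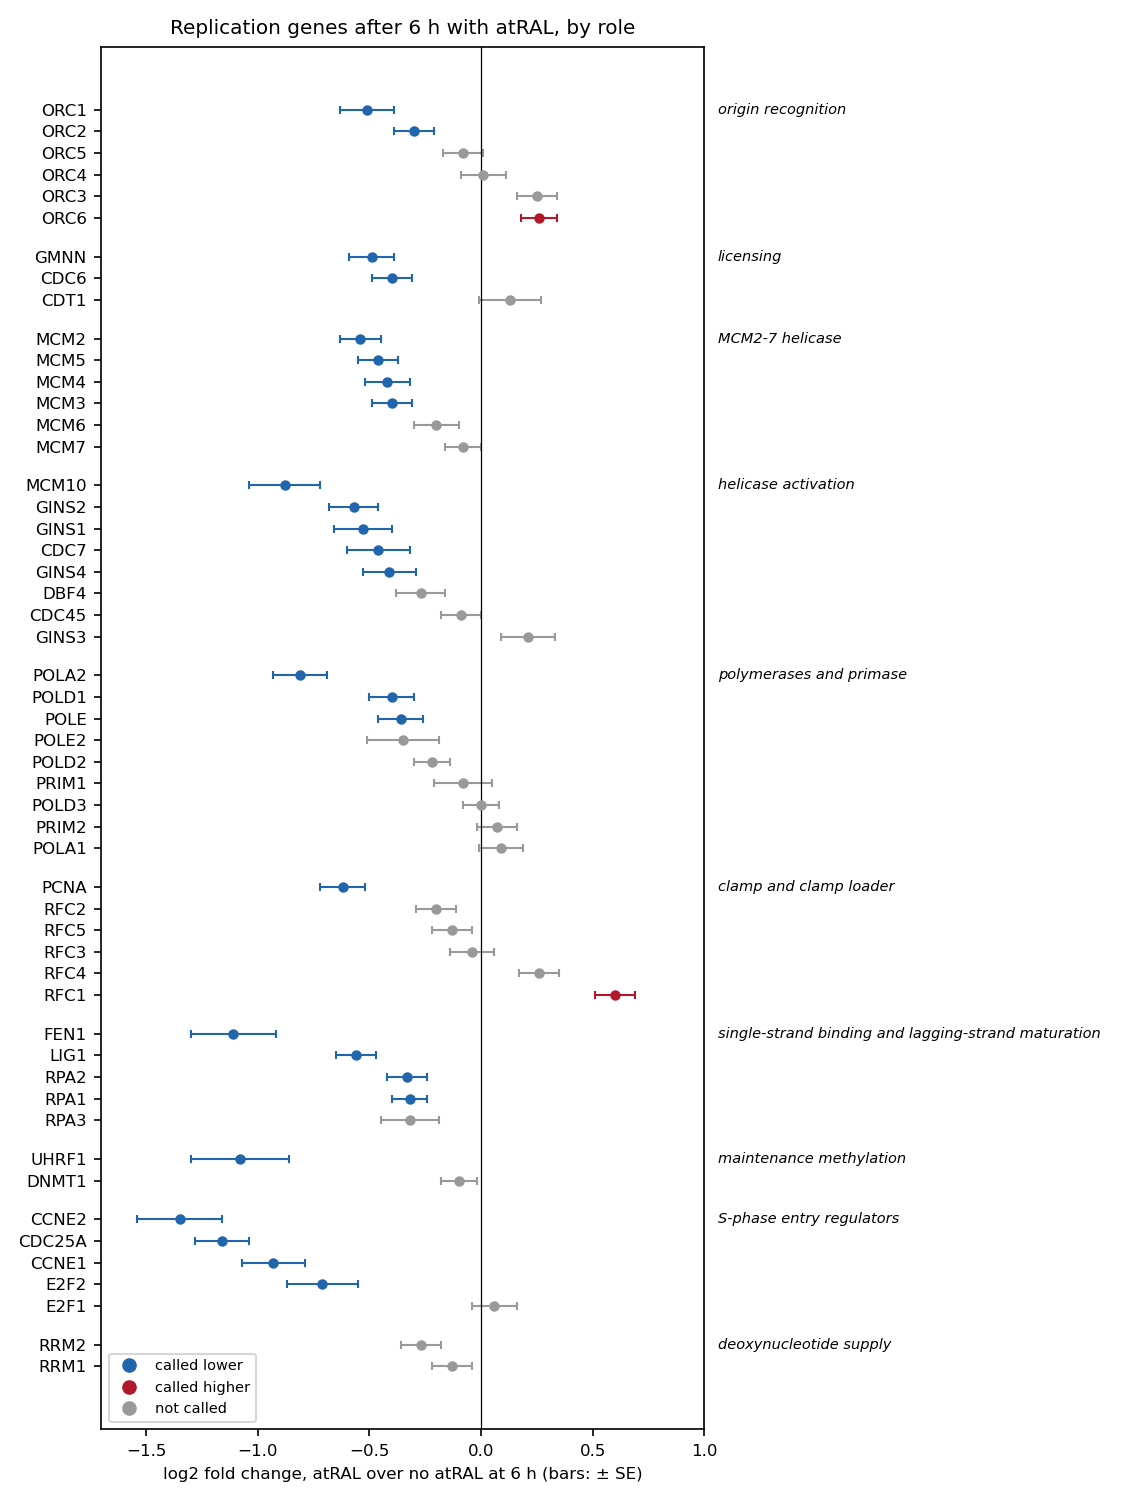
Log2 fold change of each of the 52 genes for atRAL over no atRAL at 6 h (x axis; points are edgeR estimates, bars ± SE), grouped by role down the page and coloured by the call. Genes called lower reach from -0.30 (ORC2) to -1.35 (CCNE2), and RFC1 (0.60) and ORC6 (0.26) stand on the other side of 0.

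The largest decreases were in the genes of S-phase entry, where 4 of 5 were called lower, with a median log2 fold change of -0.93. CCNE2 (chr8:94880224-94896693), a cyclin E that activates CDK2, had 5.85 CPM with atRAL plus EV and 3.59 with atRAL alone at 6 h, against 11.2 with EV alone and 12.5 in the control (CPM here and below scaled by TMM factors). CCNE2 at 1 h stood at 11.7 CPM with atRAL plus EV and 10.1 with atRAL alone, against 13.4 with EV alone and 12.0 in the control. Both 6 h atRAL libraries are the lowest of the 8, and the log2 fold change was -1.35 ± 0.19 (SE, adjusted p = 0.0028), 2.56-fold lower. Its exons share 37% of their bases with INTS8 on the other strand, and the strand setting of the counting is not given in the sources used here, so the gene is uncertain. INTS8 itself had a log2 fold change of -0.02 (adjusted p = 0.87).

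CDC25A (chr3:48157146-48188417), the phosphatase that removes inhibitory phosphates from CDK2, had 11.1 CPM with atRAL plus EV and 6.64 with atRAL alone at 6 h, against 21.5 with EV alone and 17.1 in the control. CDC25A at 1 h stood at 16.2 CPM with atRAL plus EV and 14.4 with atRAL alone, against 17.3 with EV alone and 17.8 in the control. The 2 groups did not overlap at either time, with a far smaller gap at 1 h. The change at 6 h was -1.16 ± 0.12 (adjusted p = 0.00059), the smallest adjusted p of the 52 genes.

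CCNE1 (chr19:29811991-29824312), the other cyclin E, had 3.60 CPM with atRAL plus EV and 3.89 with atRAL alone at 6 h, against 7.21 with EV alone and 7.11 in the control. CCNE1 at 1 h stood at 5.2 CPM with atRAL plus EV and 5.28 with atRAL alone, against 5.06 with EV alone and 5.70 in the control. The 1 h libraries overlap, and at 6 h the control and EV libraries are the highest of the 8 and the atRAL libraries the lowest. The change at 6 h was -0.93 ± 0.14 (adjusted p = 0.0024).

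E2F2 (chr1:23505212-23531233), an activating E2F factor, had 4.41 CPM with atRAL plus EV and 4.4 with atRAL alone at 6 h, against 6.19 with EV alone and 8.41 in the control. E2F2 at 1 h stood at 7.40 CPM with atRAL plus EV and 7.36 with atRAL alone, against 6.82 with EV alone and 8.54 in the control. The change at 6 h was -0.71 ± 0.16 (adjusted p = 0.013), and the adjusted p reached 0.1 when a 6 h library without EV (atRAL alone or control) was left out. E2F1, the first activating factor to be named, was not called. It had 24.6 and 24.2 CPM with atRAL (plus EV and alone) at 6 h, against 21.9 with EV alone and 25.0 in the control, a log2 fold change of 0.06 ± 0.10 (adjusted p = 0.7).

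**Figure D2:**
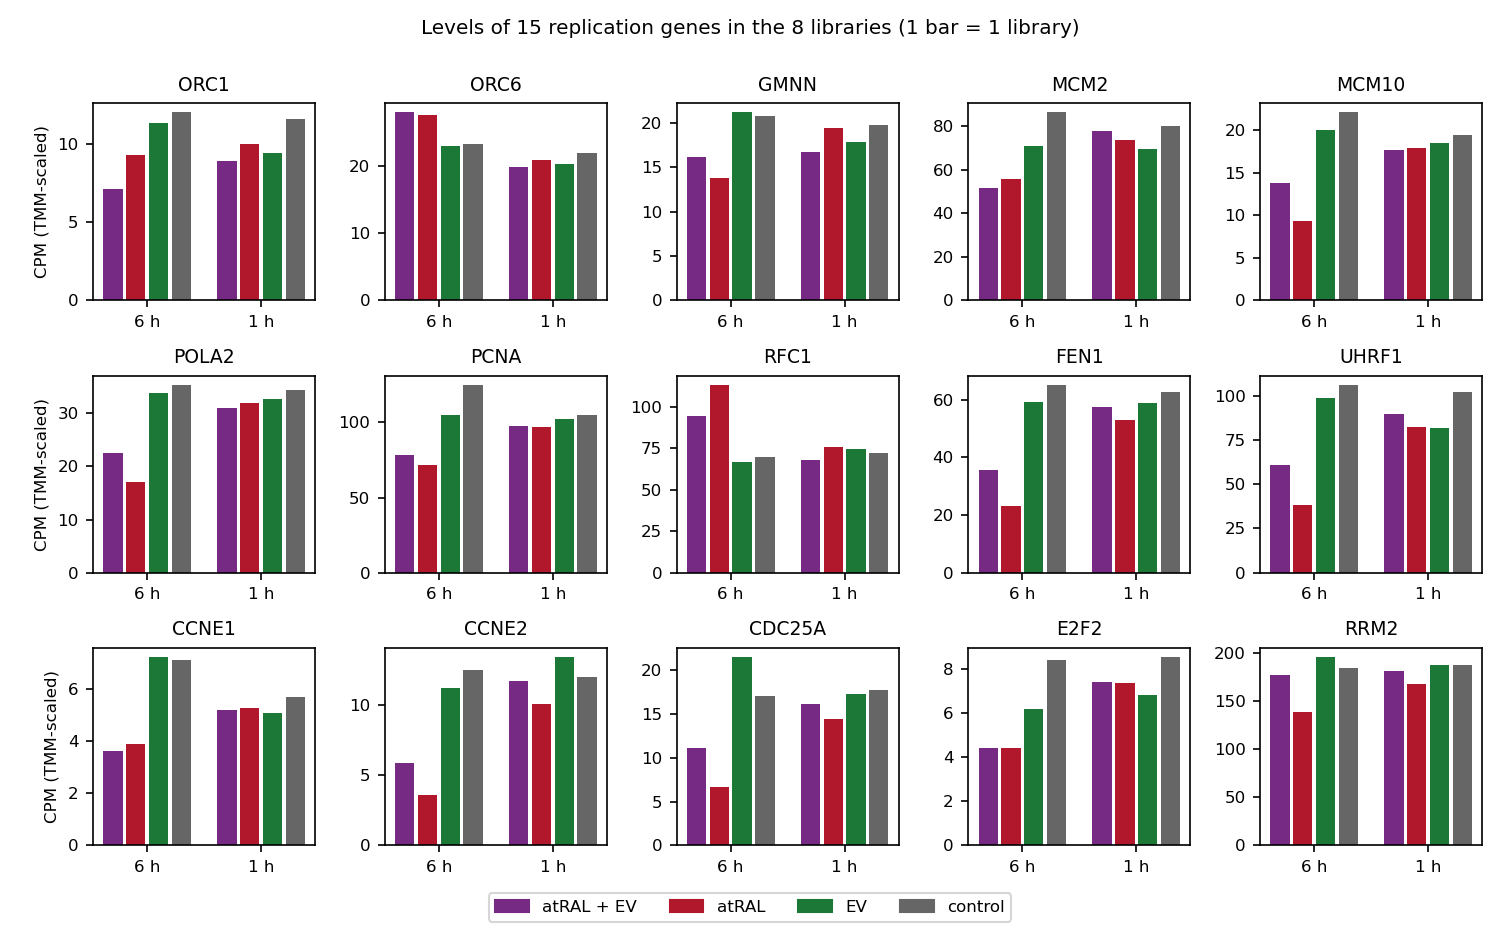
TMM-scaled CPM (y axes, each from 0) of 15 genes in the 8 libraries, 1 bar per library, with the 6 h libraries left of the 1 h libraries. At 6 h the bars of both atRAL libraries are below the others for CCNE2 (5.85 and 3.59 against 11.2 and 12.5) and 12 further genes, and above them for RFC1 and ORC6.

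Among the enzymes of the lagging strand and the single-strand binding protein RPA, 4 of 5 genes were called lower (median -0.33). FEN1 (chr11:61792911-61797238), the nuclease that trims the flaps of Okazaki fragments, had 35.7 CPM with atRAL plus EV and 23.1 with atRAL alone at 6 h, against 59.3 with EV alone and 65.1 in the control. FEN1 at 1 h stood at 57.5 CPM with atRAL plus EV and 53.1 with atRAL alone, against 58.8 with EV alone and 62.8 in the control. It fell 2.16-fold at 6 h (log2 fold change -1.11 ± 0.19, adjusted p = 0.01), and the library with atRAL alone is the lowest of the 8. LIG1, the ligase that seals the fragments, changed by -0.56 ± 0.09 (adjusted p = 0.003), with 29.5 and 32.4 CPM with atRAL (plus EV and alone), against 43.6 with EV alone and 47.8 in the control. RPA1 and RPA2 changed by -0.32 and -0.33, and RPA3, at -0.32 ± 0.13, was not called.

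UHRF1 (chr19:4903080-4962154), which reads hemimethylated DNA behind the fork and brings in the methyltransferase DNMT1, had 60.7 CPM with atRAL plus EV and 38.3 with atRAL alone at 6 h, against 98.7 with EV alone and 106 in the control. UHRF1 at 1 h stood at 89.4 CPM with atRAL plus EV and 82.4 with atRAL alone, against 81.8 with EV alone and 102 in the control. The groups overlap at 1 h but not at 6 h, and the change at 6 h was -1.08 ± 0.22 (adjusted p = 0.024). DNMT1, its partner, had 169 and 179 CPM with atRAL (plus EV and alone), against 181 with EV alone and 192 in the control, a log2 fold change of -0.10 ± 0.08 (adjusted p = 0.35).

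Of the 8 genes of helicase activation, 5 were called lower (median -0.43). MCM10 (chr10:13161558-13211110), which is needed for the helicase to unwind origin DNA, had 13.8 CPM with atRAL plus EV and 9.37 with atRAL alone at 6 h, against 20.1 with EV alone and 22.1 in the control. MCM10 at 1 h stood at 17.7 CPM with atRAL plus EV and 17.9 with atRAL alone, against 18.5 with EV alone and 19.4 in the control. The groups did not overlap at 6 h, and the change was -0.88 ± 0.16 (adjusted p = 0.0067). Of the GINS complex, GINS2 (-0.57), GINS1 (-0.53) and GINS4 (-0.41) were lower, while GINS3 was at 0.21 ± 0.12 and was not called. Antisense genes share 21.2% of the exon bases of GINS4 and 10.9% of those of GINS3, so both are uncertain. The kinase CDC7 was called lower (-0.46 ± 0.14, adjusted p = 0.045), a call kept in 2 of 8 fits without 1 library. Its activator DBF4 (-0.27) and CDC45 (-0.09) did not pass the test.

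In the MCM ring itself, 4 of 6 subunits were called lower (median -0.41). MCM2 (chr3:127598411-127622436) had 51.7 CPM with atRAL plus EV and 55.6 with atRAL alone at 6 h, against 70.8 with EV alone and 86.2 in the control. MCM2 at 1 h stood at 77.5 CPM with atRAL plus EV and 73.6 with atRAL alone, against 69.5 with EV alone and 80.2 in the control. Both 6 h atRAL libraries are below the other 6, and the change was -0.54 ± 0.09 (adjusted p = 0.0042). An antisense gene shares 22.7% of its exon bases, so MCM2 is uncertain for the same reason as CCNE2. MCM5 (-0.46), MCM4 (-0.42) and MCM3 (-0.40) were lower by like amounts, while MCM6 (-0.20) and MCM7 (-0.08 ± 0.08) were not called.

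Of the polymerase and primase genes, 3 of 9 were called lower (median -0.22). POLA2 (chr11:65261962-65305985), the regulatory B subunit of polymerase alpha, had 22.6 CPM with atRAL plus EV and 17.1 with atRAL alone at 6 h, against 33.8 with EV alone and 35.3 in the control. POLA2 at 1 h stood at 31.0 CPM with atRAL plus EV and 31.9 with atRAL alone, against 32.6 with EV alone and 34.3 in the control. The change at 6 h was -0.81 ± 0.12 (adjusted p = 0.002). A readthrough gene model on the same strand shares 35.1% of its exon bases, so how reads were split between them is uncertain. The catalytic subunits of the leading and lagging strand polymerases, POLE (-0.36) and POLD1 (-0.40), were lower too. The other members of the POLA2 complex, POLA1 (0.09 ± 0.10), PRIM1 (-0.08 ± 0.13) and PRIM2 (0.07 ± 0.09), were not called, and PRIM1 is uncertain because another gene model on its strand shares 14.9% of its exon bases.

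Of the 6 genes of the clamp and its loader, PCNA was called lower and RFC1 higher (median -0.09). PCNA (chr20:5114953-5126622), the clamp, had 78.6 CPM with atRAL plus EV and 71.4 with atRAL alone at 6 h, against 105 with EV alone and 125 in the control. PCNA at 1 h stood at 97.9 CPM with atRAL plus EV and 96.9 with atRAL alone, against 102 with EV alone and 105 in the control. Its change at 6 h was -0.62 ± 0.10 (adjusted p = 0.0034), and both atRAL libraries are the lowest of the 8.

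RFC1 (chr4:39287456-39366362), the large subunit of the complex that opens the PCNA ring, had 94.2 CPM with atRAL plus EV and 113 with atRAL alone at 6 h, against 66.7 with EV alone and 69.5 in the control. RFC1 at 1 h stood at 68.0 CPM with atRAL plus EV and 75.8 with atRAL alone, against 74.4 with EV alone and 71.9 in the control. Both 6 h atRAL libraries are the highest of the 8, and RFC1 rose 1.52-fold (log2 fold change 0.60 ± 0.09, adjusted p = 0.0021). The 4 small loader subunits RFC2 to RFC5 lay between -0.20 and 0.26 and were not called.

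Origin recognition and licensing were divided. ORC1 (chr1:52372829-52409503), the subunit of ORC whose level cycles, had 7.09 CPM with atRAL plus EV and 9.29 with atRAL alone at 6 h, against 11.3 with EV alone and 12.0 in the control. ORC1 at 1 h stood at 8.93 CPM with atRAL plus EV and 10.0 with atRAL alone, against 9.39 with EV alone and 11.6 in the control. Its change at 6 h was -0.51 ± 0.12 (adjusted p = 0.014), and the adjusted p reached 0.089 when a 6 h library with EV was left out. ORC2 was lower by less (-0.30).

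ORC6 (chr16:46689659-46698394), the smallest subunit, had 28 CPM with atRAL plus EV and 27.6 with atRAL alone at 6 h, against 23.0 with EV alone and 23.3 in the control. ORC6 at 1 h stood at 19.9 CPM with atRAL plus EV and 20.9 with atRAL alone, against 20.4 with EV alone and 22.0 in the control. The 6 h atRAL libraries are the highest of the 8, with a change of 0.26 ± 0.08 (adjusted p = 0.047), and the call was lost whichever library was left out (adjusted p 0.11 to 0.15). ORC3 (0.25 ± 0.09), ORC4 (0.01) and ORC5 (-0.08) were not called.

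GMNN (chr6:24774937-24786099), which encodes geminin, the inhibitor of CDT1, had 16.2 CPM with atRAL plus EV and 13.8 with atRAL alone at 6 h, against 21.2 with EV alone and 20.8 in the control. GMNN at 1 h stood at 16.7 CPM with atRAL plus EV and 19.4 with atRAL alone, against 17.9 with EV alone and 19.8 in the control. Its change at 6 h was -0.49 ± 0.10 (adjusted p = 0.0077), lost at 0.052 without the 6 h control. CDC6, which loads MCM, was lower (-0.40 ± 0.09, adjusted p = 0.012), and its partner CDT1 was not called (0.13 ± 0.14), with 18.5 and 27.5 CPM with atRAL (plus EV and alone), against 20.2 with EV alone and 21.2 in the control.

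Ribonucleotide reductase makes deoxynucleotides, and edgeR called neither of its 2 genes. RRM2 (chr2:10122568-10211010), its cell cycle regulated subunit, had 178 CPM with atRAL plus EV and 139 with atRAL alone at 6 h, against 196 with EV alone and 185 in the control. RRM2 at 1 h stood at 182 CPM with atRAL plus EV and 168 with atRAL alone, against 188 with EV alone and 188 in the control. The log2 fold change was -0.27 ± 0.09, with an adjusted p of 0.05 that did not pass, and 20.2% of its exon bases are shared with another gene model. RRM2 was called lower in 9 of 19 alternatives, among them DESeq2 (adjusted p = 0.035) and limma-voom (adjusted p = 0.047), over which its adjusted p ran from 0.0068 to 0.39. RRM1 was at -0.13 ± 0.09, and both genes were called lower when a 6 h library with EV was left out.

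Of the 26 genes called lower, 12 were called in every fit that left out 1 of the 8 libraries: MCM2, MCM5, MCM10, GINS2, POLA2, PCNA, FEN1, LIG1, UHRF1, CCNE1, CCNE2 and CDC25A. RFC1 was likewise called higher in all 8. The calls of ORC2, MCM3, MCM4, GINS1, GINS4, CDC7, POLE, RPA1 and RPA2 were each kept in 2 of the 8 fits, and lost without any 1 of the 1 h libraries. The number called lower was 17 when any 1 of the 1 h libraries was left out. In those fits 8.12% to 8.76% of all genes were called lower, against 14.2% with all 8 libraries. The median log2 fold change of the 52 was -0.20 without atRAL alone at 6 h or without the 6 h control. It was -0.43 without either 6 h library with EV. Without a 6 h library, the effect rests on 1 atRAL library against 1 and the spread on the 1 h libraries, and without a 1 h library the spread comes from the 6 h libraries. The library with atRAL alone at 6 h was the lowest of the 8 for 30 of the 52 genes (57.7%), where it was the lowest for 22% of all genes.

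Markers of other kinds moved as well. MKI67, a marker of cycling cells, was at most 388 CPM of the total in the 6 h atRAL libraries, against at least 516 in the others of 6 h, while TOP2A was at most 244, against at least 242. The 3 epithelial markers summed to 1090 and 991 CPM with atRAL (plus EV and alone), against 1270 with EV alone and 1120 in the control, and 2 of the 3 were below both others. Of the 7 pigment epithelium markers 2 were lower in this way. The 7 summed to 58.3 and 60.6 CPM with atRAL (plus EV and alone), against 78.8 with EV alone and 86.6 in the control. BEST1 was not lower in this way. Its highest value in a 6 h atRAL library was 4.32 CPM and its lowest in a 6 h library without atRAL 0.668 CPM, which does not show whether the groups overlap. By TMM-scaled CPM, both 6 h atRAL libraries lay below both others for 29.9% of all genes tested. Of the 3 markers of the mesenchymal cells that shed the vesicles, THY1 and NT5E were lower. Over the 8 libraries THY1 was at 277 to 382 CPM, NT5E at 631 to 1040 and ENG at 0.475 to 1.1. The 3 summed to 1070 and 913 CPM with atRAL (plus EV and alone), against 1300 with EV alone and 1270 in the control. Libraries given no EV thus held these mRNAs as well. PTPRC, a blood marker, was at most 0.183 CPM. Of the endothelial markers CDH5 was at most 0.0805 CPM and PECAM1 at 0.73 to 1.43 CPM, and the pair summed to 1.16 and 1.51 CPM with atRAL (plus EV and alone), against 1.11 with EV alone and 0.73 in the control. The part of these markers in the change of the replication genes was not tested.

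Related genes outside the 52 were counted on 5 lists. Of 11 other E2F and pocket protein genes, 4 were called higher and 1 lower (median -0.06). E2F7, a repressor of E2F targets, had 191 CPM with atRAL plus EV and 189 with atRAL alone at 6 h, against 57.4 with EV alone and 50.9 in the control. It rose 3.51-fold (log2 fold change 1.81 ± 0.08, adjusted p = 2e-05), and E2F6, another repressor, changed by 0.71 and E2F3 by 0.50. RB1 was called higher by less (0.27), a call lost in most fits without 1 library. The gene called lower was E2F4 (-0.40 ± 0.08, adjusted p = 0.0066). E2F8 was at -0.42 ± 0.17 and was not called, so the E2F genes did not move together. Of 9 genes of CDK2 and cyclin A control, 4 were lower. SKP2, which marks a CDK inhibitor for destruction, had 9.75 CPM with atRAL plus EV and 5.11 with atRAL alone, against 26.5 with EV alone and 26.0 in the control (log2 fold change -1.88 ± 0.21, adjusted p = 0.0022). CCNA2 (-0.44) and CDK2 (-0.40) were lower too, the CDK2 call being lost without the 6 h control or atRAL alone at 6 h. Of the CDK inhibitor genes on the list, CDKN1A was not called (0.03 ± 0.11) and CDKN1B was lower (-0.32 ± 0.07, adjusted p = 0.014). The CDKN1B call was kept in 2 of 8 fits without 1 library. At 1 h CDKN1B changed by -0.46 ± 0.07 and was not called (adjusted p = 0.4).

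Of 24 other replisome, fork and chromatin assembly genes, 9 were called lower and 1 higher (median -0.27). The largest changes were in the histone chaperone gene ASF1B (-0.72), the checkpoint adaptor CLSPN (-0.68) and the nuclease DNA2 (-0.58). The CLSPN call was lost in 6 of 8 fits without 1 library, with an adjusted p of up to 0.12, and that of DNA2 in 2 of 8, with up to 0.064. Of 7 nucleotide supply genes, 2 were lower, DCTPP1 (-0.42) and TYMS (-0.33). The TYMS call was lost in 6 of 8 such fits (adjusted p up to 0.24) and that of DCTPP1 in 2 of 8 (up to 0.064). Of 8 replication checkpoint genes, 3 were lower and 1 higher, led by the kinase gene ATR (-0.60), RAD9A (-0.58) and ATRIP (-0.49), the partner of ATR.

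Promoter windows were listed for 45 of the 52 genes, and 24 of the 45 (53.3%) held at least 1 E2F word, against 3.99% of 27305 genes with a window. CCAAT, the word of the factor NF-Y, was in 57.8% of the 45 on either strand, against 39.7% of all, and TTTGAA, the CHR word of late cell cycle genes, in 4.44%, against 18.2% of all. The E2F words lay near the start: of 33 words, 26 were no more than 100 bases before it, with a median position of -35. Of the 24 genes with a word, 14 were called lower and 0 higher for atRAL at 6 h (median -0.40). Of the 21 without, 7 were lower and 2 higher (median -0.20), and FEN1, MCM10 and CCNE1 are among the 7. The 7 genes with no window used had 5 lower, CCNE2 among them.

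**Figure D3:**
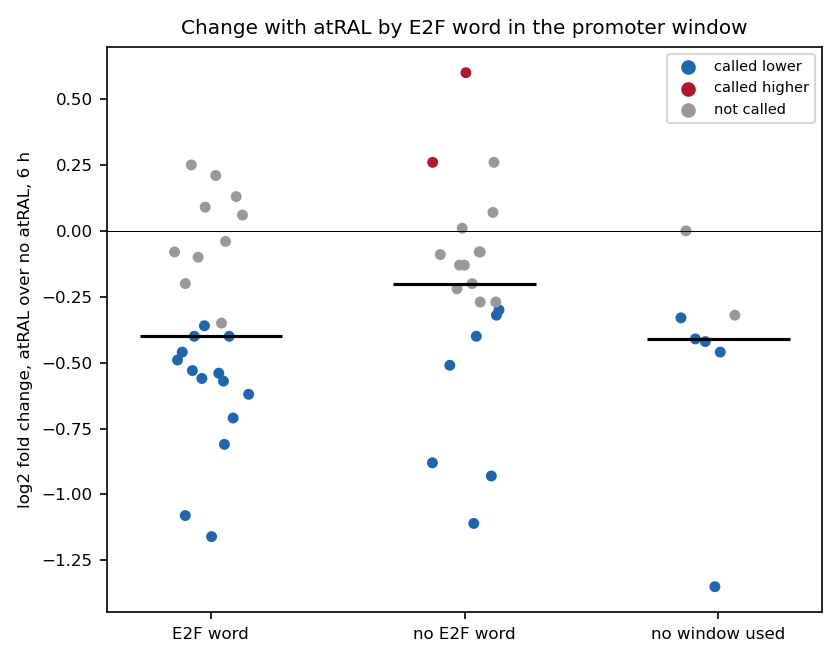
Log2 fold change for atRAL over no atRAL at 6 h (y axis) of the 24 genes with an E2F word in the promoter window, the 21 without and the 7 with no window used (x axis). Lines are medians (-0.40, -0.20 and -0.41), and the values of the 3 sets overlap.

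At 1 h, none of the 52 genes was called for atRAL by edgeR, where 0.00587% of all genes were. At an unadjusted p under 0.05 there were 0 of the 52, against 323 of all 17044 genes. DESeq2 and limma-voom called 0 as well. The log2 fold changes ran from -0.22 to 0.09, with a median of -0.06. Below 0 were 45 of the 52, and 8437 of all 17044 genes. In pairs of libraries at 1 h, atRAL alone was below the control for 42 of the 52 genes, where it was for 49.9% of all genes. EV alone was below the same control for 41 (50.8% of all genes), and atRAL plus EV was below EV alone for 34 (50.5%). The 52 genes held 0.26% of the counts in the 1 h control and 0.234% to 0.235% in the other 1 h libraries.

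The effect of atRAL at 6 h minus that at 1 h was itself tested. It was lower for 8 of the 52 genes, where 5.43% of all genes were called lower, and higher for RFC1, where 7.98% of all genes were called higher. The 8 were CCNE2 (-1.14 ± 0.27, adjusted p = 0.037), CDC25A (-0.96 ± 0.17, adjusted p = 0.013), CCNE1 (-0.90 ± 0.20, adjusted p = 0.025), POLA2 (-0.72), MCM2 (-0.56), GINS2 (-0.56), LIG1 (-0.54) and PCNA (-0.53), and RFC1 was at 0.63 ± 0.12 (adjusted p = 0.017). FEN1 (-0.97 ± 0.26, adjusted p = 0.072) and UHRF1 (-0.99 ± 0.31, adjusted p = 0.11) were not called. None of these calls was kept when any 1 of the 1 h libraries was left out, and fewer of all genes were called then too. In fits without 1 library, the effect of atRAL at that time is 1 library against 1. The median of the 52 was -0.26 with all 8 libraries, and -0.31 or -0.19 without 1 of the 1 h libraries. It was -0.39 without a 6 h library with EV, and -0.12 without the 6 h control or atRAL alone at 6 h. The 4 libraries of 6 h enter both the test of the difference and that of atRAL at 6 h.

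The change with time was also set out for each state. With atRAL, 15 genes were lower at 6 h than at 1 h and 2 were higher, where 8.64% and 11.6% of all genes were called, with a median of -0.21. The lowest were CCNE2 (-1.24 ± 0.17, adjusted p = 0.005), FEN1 (-0.94 ± 0.13, adjusted p = 0.0056), UHRF1 (-0.83 ± 0.14, adjusted p = 0.011), CDC25A (-0.82) and E2F2 (-0.74), and the 2 higher were RFC1 (0.53) and ORC6 (0.45). Those called in every fit without 1 library were CCNE2, FEN1, UHRF1 and RFC1. Without the 6 h control or EV alone at 6 h, 4 genes were called lower, as were 4.09% and 3.94% of all genes. Without the 1 h control or EV alone at 1 h, 6 genes were, as were 4.72% and 4.49% of all genes. Without an atRAL library the change is 1 library against 1. The median of the 52 was then -0.18 without either library with atRAL alone and -0.28 without either with atRAL plus EV. Each of those fits also called fewer of all genes lower than the full fit did. The test of time with atRAL and that of atRAL at 6 h share the 2 libraries with atRAL at 6 h. Without atRAL, the change of 6 h over 1 h had a median of 0.01 and a range of -0.27 to 0.41, and edgeR called 0 of the 52 genes, where 0.158% of all genes were called. At an unadjusted p under 0.05 there were 3 of the 52, against 2733 of all 17044 genes, and DESeq2 and limma-voom called 0.

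**Figure D4:**
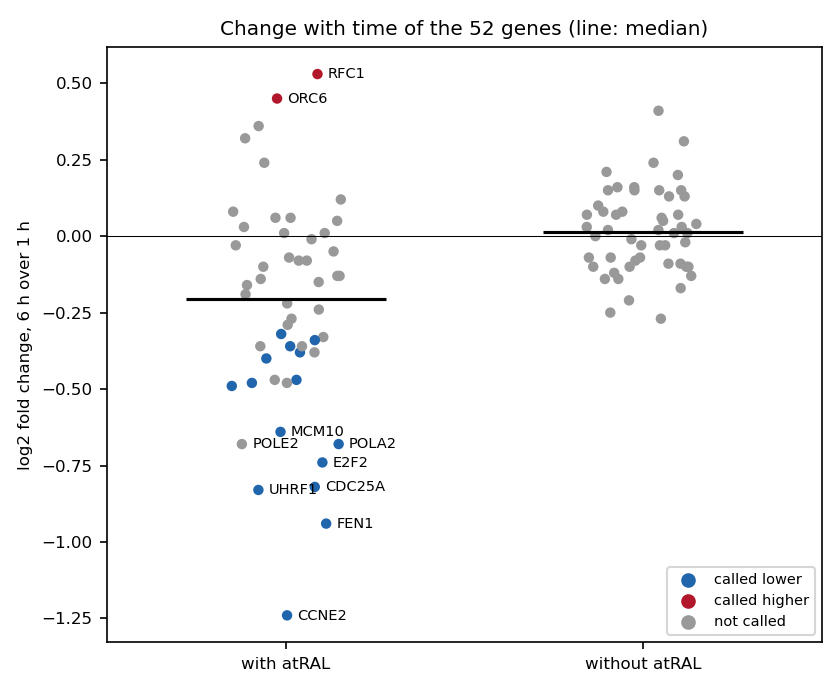
Log2 fold change of 6 h over 1 h (y axis) of the 52 genes with atRAL and without atRAL (x axis), coloured by the call, with a line at each median (-0.21 and 0.01). The points with atRAL reach down to -1.24 (CCNE2), and those without stay between -0.27 and 0.41.

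EV by itself left the replication genes without a call. For EV at 6 h, edgeR called 0 of the 52, where 1.7% of all genes were called, and DESeq2 and limma-voom called 0. At an unadjusted p under 0.05 there were 4 of the 52, against 3175 of all 17044 genes. The log2 fold changes had a median of 0 and ran from -0.32 (CDT1) to 0.52 (CDC25A, ± 0.12, adjusted p = 0.079). For EV at 1 h the count was 0 as well, where 0.205% of all genes were called. Of the 52, 1 had an unadjusted p under 0.05, as had 771 of all 17044 genes. For EV over both times with atRAL, without atRAL, and for their difference, edgeR called 0 of the 52 and 0% of all genes. In that order, 7, 3 and 2 of the 52 had an unadjusted p under 0.05, against 531, 396 and 194 of all 17044 genes.

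The fit for EV at 6 h averages the pair with atRAL and the pair without, and the 2 pairs had medians on either side of 0. Between single libraries at 6 h, atRAL plus EV was above atRAL alone for 37 of the 52 genes (71.2%), where it was for 47.8% of all genes, with a median log2 ratio of 0.11. EV alone was above the control for 14 (26.9%), where it was for 51.6% of all genes, with a median of -0.10. Leaving out the 6 h control or EV alone, so that the atRAL pair alone gives the effect, brought 9 genes called higher and 1 lower. Without the 6 h control 5.38% of all genes were called higher and 4.77% lower, and without EV alone 5.4% and 4.85%. In these fits the effect is 1 library against 1, and the spread comes from the 1 h libraries alone. The 9 were MCM10, GINS1, CDC7, DBF4, FEN1, UHRF1, CCNE2, CDC25A and RRM2, and the 1 lower was CDT1.

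The log2 ratio of atRAL over no atRAL at 6 h was higher with EV than without for most of the genes. The log2 ratio of atRAL plus EV over EV alone had a median of -0.20, and that of atRAL alone over the control a median of -0.42. The ratio was higher with EV for 42 of the 52 genes (80.8%), among them ORC3, ORC6 and RFC4, whose ratios were above 0 both ways. It was less negative for 23 of the 26 called lower (88.5%), and higher for 70.8% of all 2422 genes called lower. For CCNE2 the ratios were -0.93 with EV and -1.79 without, for FEN1 -0.73 and -1.49, for UHRF1 -0.70 and -1.47, and for MCM10 -0.54 and -1.24. The 3 exceptions among the genes called lower were CCNE1 (-1 with EV and -0.86 without), ORC1 (-0.66 and -0.36) and LIG1 (-0.57 and -0.56).

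**Figure D5:**
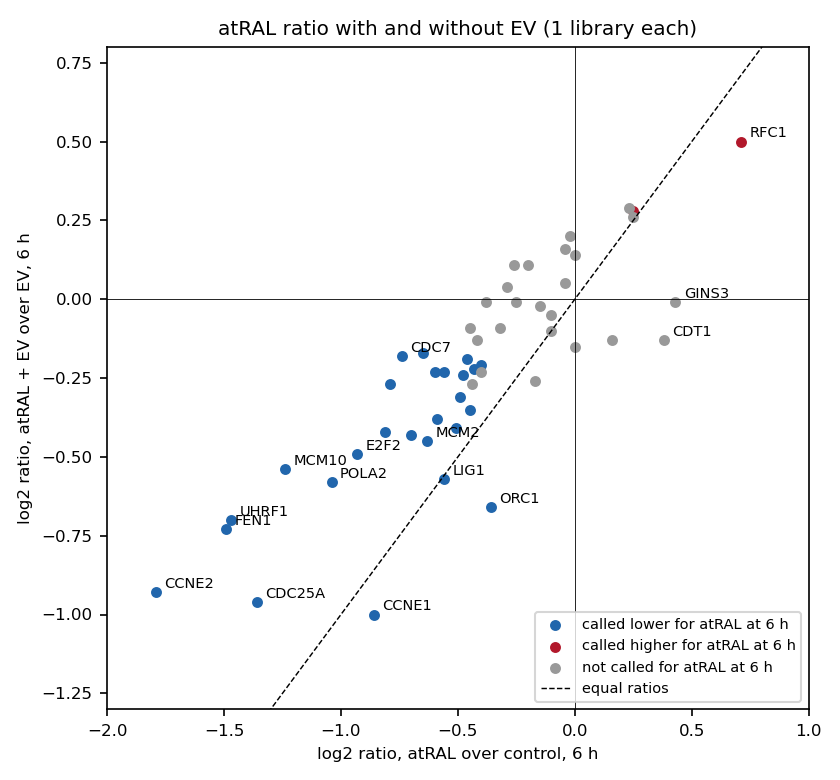
Log2 ratio of atRAL plus EV over EV alone (y axis) against that of atRAL alone over control (x axis) at 6 h for the 52 genes, 1 library in each condition, with the line of equal ratios. Of the genes called lower, 23 of 26 lie above the line, and CCNE1, ORC1 and LIG1 below it.

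That difference was tested as a term for atRAL by EV at 6 h, with the spread taken from the 1 h libraries. It was called for FEN1 (0.76 ± 0.16, adjusted p = 0.03), and for no other of the 52, where 0.792% of all genes were called higher and 0.892% lower. DESeq2 called 0 and limma-voom 1. The term was above 0 for 42 of the 52 genes and for 8265 of all 17044, with medians of 0.21 and -0.01. At an unadjusted p under 0.05 there were 15 of the 52, against 1982 of all 17044 genes. The highest were CCNE2 (0.86 ± 0.22, adjusted p = 0.083), UHRF1 (0.77 ± 0.20, adjusted p = 0.15), FEN1 and MCM10 (0.70 ± 0.18, adjusted p = 0.091), and the lowest were CDT1 (-0.51 ± 0.20) and GINS3 (-0.44 ± 0.18). By role, the median was 0.42 for helicase activation, 0.41 for S-phase entry and 0.26 for the MCM ring, and 0.02 for origin recognition.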

How the data were processed

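Libraries of poly(A) RNA were made with a stranded TruSeq kit, per the labels' protocols. The authors deposited 1 table of 46427 genes that holds read counts, unnormalised, and FPKM, scaled by length and library, per the file headers. It also has 8 per-sample TPM columns that were left unused. The submitters' processing notes name HISAT2 2.1.0, StringTie 2.1.3b and GRCh38, with no roles, and neither the counter nor its strand setting is known from the sources used here.

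Genes were filtered by filterByExpr (minimum count 10), which kept 17044, scaled by TMM and tested in R 4.3.3 with edgeR 4.0.16 (robust quasi-likelihood, two-sided, Benjamini-Hochberg over all 17044 genes, called at an adjusted p under 0.05). As no condition has a replicate, model A (time, atRAL within time, EV within time) gave the effects of atRAL and EV at each time. Model B (the 4 combinations of time and atRAL, EV within atRAL status) gave those of time and of EV by atRAL status. Each has 2 residual degrees of freedom, with biological coefficients of variation of 9.66% and 13.9%, and any interaction of atRAL with EV at 1 time counts as spread in model A. The term for atRAL by EV at 6 h (1 residual degree of freedom, coefficient of variation 7.03%) was added after seeing the data. Errors after ± are SE of the log2 fold change, from the F statistic. Single libraries were compared, without a test, by TMM-scaled CPM on the log2 scale (prior count 2). Alternatives used limma 3.58.1, DESeq2 1.42.0, other scalings and filters, log2(FPKM + 1), log2(FPKM + 0.1) and fits without 1 library. The fitting was also run on counts simulated without an interaction of atRAL with EV. Such counts cannot show how the tests behave where there is one.

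The 52 genes, the lists and the tests were chosen with earlier results of these data known. Values in every library are given for members called for atRAL at 6 h with a log2 fold change of at least 0.58 in size, the largest change in each role, up to 6 members called in any other effect, and those called against the majority. Up to 3 called genes are named from each other list. E2F1, DNMT1, LIG1, CDT1, CDKN1A, CDKN1B, E2F4, E2F8 and RB1 were singled out after their values were seen.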

Additional observations from a re-analysis of the deposited data

Results flagged for a closer look

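The effect of atRAL at 6 h differed from that at 1 h, by edgeR's test of the difference over all 8 libraries, for 9 of the 52 genes. The difference of log2 fold changes (6 h minus 1 h) was -1.14 for CCNE2, -0.96 for CDC25A, -0.90 for CCNE1, -0.72 for POLA2, -0.56 for MCM2, -0.56 for GINS2, -0.54 for LIG1 and -0.53 for PCNA, and 0.63 for RFC1. The adjusted p of these 9 ran from 0.013 (CDC25A) to 0.047 (GINS2), and every call was lost when any 1 of the 1 h libraries was left out, with adjusted p-values of 0.21 (CDC25A) to 0.33 (PCNA) at the most.

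The effect of atRAL at 6 h differed between cells with EV and cells without for FEN1, by 0.76 on the log2 scale (edgeR, adjusted p = 0.03). This test rests on 1 residual degree of freedom, and DESeq2 did not call FEN1.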

How the results depend on the processing

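No paired analysis was possible because each condition has 1 library and the labels carry no replicate numbers. For atRAL at 6 h, between 21 and 26 of the 26 genes called lower were called under 3 other scalings, 2 other filters, DESeq2, limma-voom and FPKM on 2 pseudocounts. Direction was compared for the 15 genes described in full, and no alternative run here reversed it. The number called higher was 1 in place of 2 under upper quartile scaling, no scaling, no filter, DESeq2, log2(FPKM + 1), log2(FPKM + 0.1), without the EV term and with only the 4 libraries of 6 h. The atRAL effect at 6 h minus 1 h was lower for 2 genes, in place of 8, with no filter and with either FPKM scale. With atRAL, 5 genes were lower at 6 h than at 1 h with log2(FPKM + 1) and 6 with log2(FPKM + 0.1), in place of 15. The term for atRAL by EV at 6 h was higher for 2 genes under upper quartile scaling and for 0 with no scaling, no filter, DESeq2 and either FPKM scale, in place of 1. The cause was not tested. Of 285 alternative values of the 15 genes described in full, 254 stayed on the same side of the threshold, 22 lost a call and 9 gained it.

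Leaving out 1 library at a time (the fit without it has 1 residual degree of freedom fewer) gave 13 to 29 genes lower, 1 to 2 higher and a median of -0.43 to -0.20 for atRAL at 6 h. For the atRAL effect at 6 h minus 1 h it gave 0 to 21 lower, 0 to 2 higher and a median of -0.39 to -0.12, and for time with atRAL 4 to 13 lower and 1 to 2 higher. For EV at 6 h it gave 0 to 9 higher, 0 to 1 lower and a median of -0.10 to 0.11, for EV with atRAL 0 to 2 higher and for EV with minus without atRAL 0 to 1 higher. The calls over all genes changed from fit to fit as well. The term for atRAL by EV at 6 h has no residual degree of freedom without a library, so it was not refitted. The median of all genes for atRAL at 6 h lay between -0.06 and 0 under every scaling and test tried. The fewest counts of any of the 52 genes in a library were 174 (POLE2, atRAL alone at 6 h), so counting error is widest for such genes.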
